A study of Drosophila melanogaster with 12 samples.

Results

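The genes examined were 10 that encode proteins of the basement membrane and an integrin that binds it. They were chosen by symbol, with no measured value in the rule, but with earlier results of these data known. The genes were the collagen IV genes *vkg* and *Col4a1*, the laminin genes *LanA*, *LanB1* and *LanB2*, the nidogen gene *Ndg*, *SPARC*, the perlecan gene *trol*, and the integrin genes *mys* and *if*. Of the 10 genes, 9 were matched by identifier among 17521 genes in the deposited table, and all 9 passed the filter on low values that left 10177 genes to test. The gene *trol* could not be matched and is not analysed here.

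Metamorphed *ph505* cells (3 samples) were GFP-marked mutant clones taken from adult flies after metamorphosis, which the labels describe as not tumorigenic. *ph505* tumours were kept growing by weekly transplantation into the abdomen of adult *w1118* females and were sampled after 4, 8 and 14 transplantations, with 2 samples at each age. The control (3 samples) was wild-type eye discs of the late 3rd larval instar that were placed in an adult abdomen and removed 1 day later. *ph505* inactivates both *ph-p* and *ph-d*, the genes of the Polycomb group protein Polyhomeotic. The mutant cells were homozygous clones made on *FRT19A* with *ey-flp* and marked through *act>STOP>Gal4 UAS-GFP* and *tub-Gal80*. *ey-flp* acts in leg and genital discs too, and marked cells are found in several regions of the adult body. The regions from which the sequenced cells were taken are not given in the sources used here. No wild-type cells that had gone through metamorphosis are analysed here, so genotype and stage cannot be told apart in the comparison of metamorphed cells with control discs. All hosts of tumours and control discs were adults, whereas the metamorphed cells came from the flies in which they had formed.

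The basement membrane is a thin sheet of matrix beneath epithelia and around muscle, fat body and nerve. Laminin trimers form the first network on the cell surface, collagen IV forms a second, and nidogen and perlecan hold the networks together. In *Drosophila* larvae most collagen IV is made by the fat body and by haemocytes, the blood cells, and reaches the imaginal discs through the haemolymph, while epithelial cells make laminin themselves. SPARC is a collagen-binding glycoprotein made by the same cells as collagen IV. Integrins are receptors of an α and a β chain that tie this matrix to the actin cytoskeleton.

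Reads on genes numbered 66046651 to 81447816 in the metamorphed samples, 16619078 to 24144498 in the tumours and 2072498 to 26137216 in the control discs, and levels are given as CPM, the reads of a gene scaled to library size. A count of 3 reads stood for 0.042 CPM in the deepest library and 1.18 CPM in the shallowest, control replicate 1. *ph-p* transcripts were read in every sample (206 to 223 CPM in metamorphed cells, 73.5 to 164 CPM in tumours, 53.3 to 84.4 CPM in control discs), as were those of *ph-d* (90.2 to 142, 43.9 to 132 and 58.5 to 81.5 CPM in the same order). The level of the mutated genes therefore does not tell the genotypes apart. The 8 eye disc markers summed to 77.8 to 140 CPM in metamorphed cells, 37.2 to 84.7 CPM in tumours and 1121 to 1334 CPM in control discs. *ato* was at 0 in all metamorphed samples and at most 0.041 CPM in tumours. Of the 8 markers, 7 were lower in metamorphed cells and 8 lower in tumours than in control discs. The sequencer of the metamorphed samples was not the one used for tumours and control discs, and in every comparison with metamorphed cells the sequencer cannot be told apart from the group. In these bulk samples fewer cells of a type and less RNA per cell cannot be told apart either. All differences are log2 fold changes of CPM + 1, which understates the change of genes with low values. Adjusted p-values are from limma with Benjamini-Hochberg adjustment over the 10177 genes tested.

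Metamorphed cells had more transcript of both collagen IV genes, of *SPARC*, of the laminin γ chain gene *LanB2* and of *Ndg* than the tumours, and less of the laminin α chain gene *LanA*. These were 5 of the 9 genes higher and 1 lower, where 28.5% of all genes tested were higher and 18.0% lower. The *Ndg* call did not hold in 9 of 12 fits that each left out a sample. Against control discs, *vkg*, *Col4a1* and *SPARC* were higher and *LanA* and *if* lower in metamorphed cells, where 21.6% of all genes were higher and 19.0% lower. These were 3 and 2 of the 9 genes. Tumours differed from control discs in 1 of the 9 genes, *LanB2*, which was lower, where 21.6% of all genes were lower. In the other direction 0 of 9 were called, where 14.4% of all genes were higher. At an unadjusted p under 0.05, 2 of the 9 differed between tumours and control discs, where 4608 of the 10177 genes tested did. The median log2 fold change of the 9 genes was 1.66 in metamorphed cells against tumours, 0.61 in metamorphed cells against control discs and -0.64 in tumours against control discs. Over all genes tested the same medians were 0.11, -0.03 and -0.19.

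**Figure D1:**
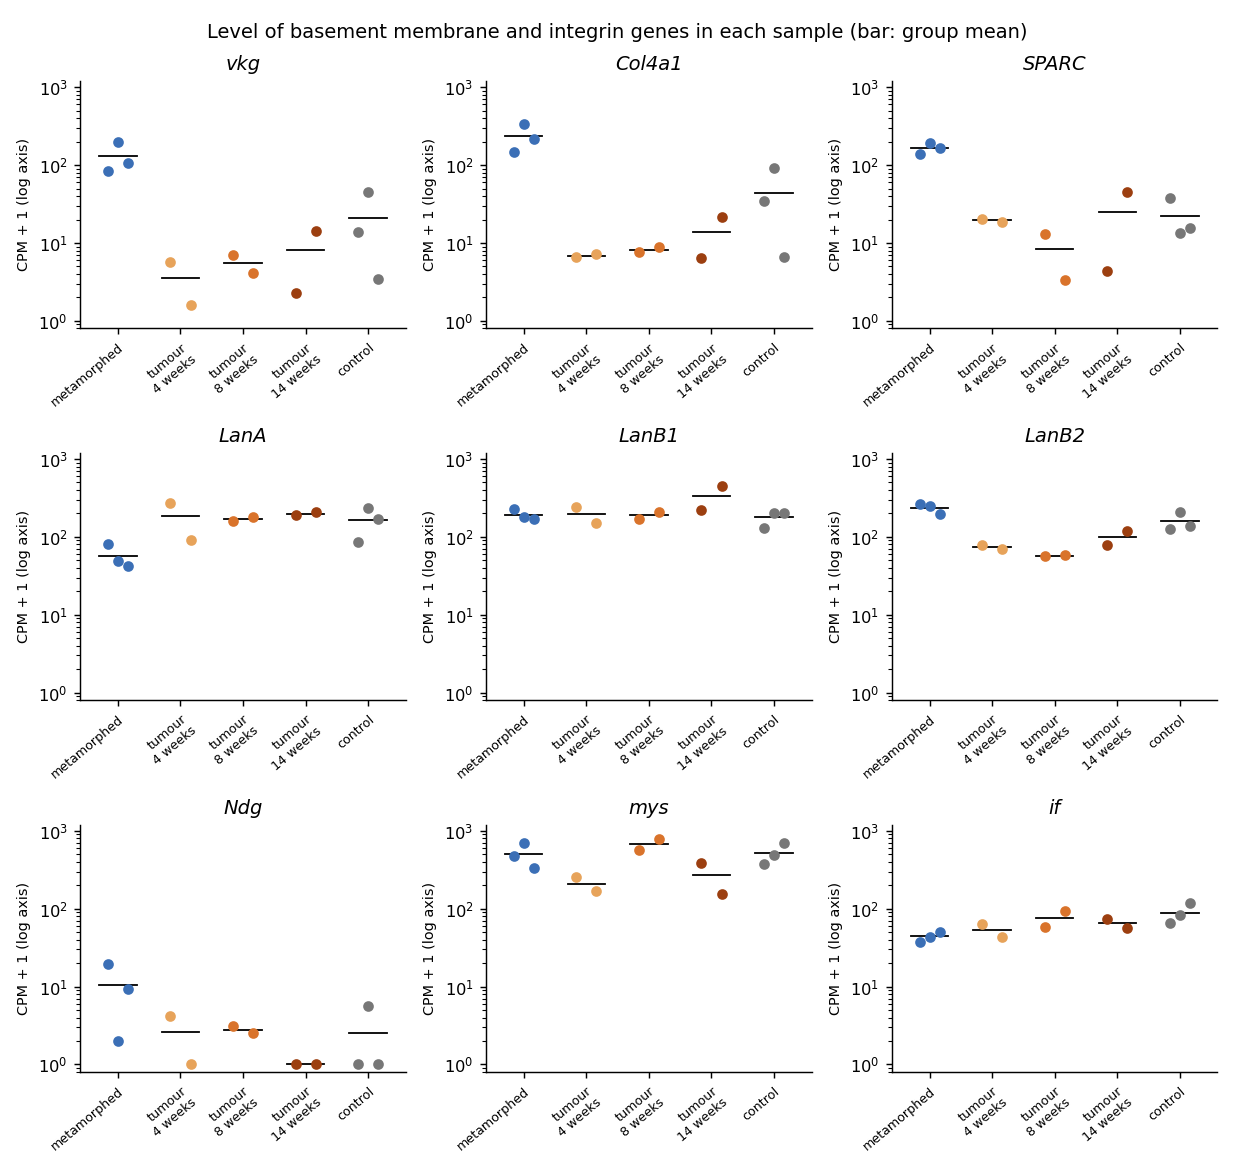
Level of each of the 9 genes in every sample, as CPM + 1 on a log axis, with a panel per gene, a point per sample and a bar at the group mean. In the panels of *vkg*, *Col4a1* and *SPARC* the 3 metamorphed samples lie above all 9 others, whereas *LanA* is lowest in the metamorphed samples and *LanB2* is lowest in the 6 tumours.

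The 2 chains of collagen IV come from neighbouring genes on chromosome 2L that are read in opposite directions. In the dm6 assembly *vkg* (FBgn0016075), the α2 chain gene, lies on the minus strand at 5012144 to 5028191, and *Col4a1* (FBgn0000299), the α1 chain gene, on the plus strand at 5029609 to 5037279, with 1417 bases between them. *vkg* had 82.0, 197 and 105 CPM in metamorphed replicates 1 to 3, 0.579 to 13.1 CPM in the 6 tumours (median 3.85) and 12.9, 43.7 and 2.49 CPM in control replicates 1 to 3. All 3 metamorphed samples were above every other sample, while the tumours and the control discs overlapped, with control replicate 3 below 4 of the 6 tumours. The level of *vkg* was 26.9-fold higher in metamorphed cells than in tumours (log2 fold change 4.75, standard error 0.78, adjusted p = 2.1e-04) and 9.31-fold higher than in control discs (3.22, standard error 0.90, adjusted p = 0.012). The call against control discs was lost without control replicate 3 (2.27, adjusted p = 0.068) and without metamorphed replicate 2 (2.86, adjusted p = 0.053).

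*Col4a1* stood at 147, 337 and 215 CPM in metamorphed replicates 1 to 3, at 5.37 to 20.7 CPM in the tumours (median 6.41) and at 33.7, 90.0 and 5.55 CPM in control replicates 1 to 3. Both chains thus had the same order of samples among the metamorphed cells and among the control discs. *Col4a1* was 25.4-fold higher in metamorphed cells than in tumours (4.67, standard error 0.66, adjusted p = 6.1e-05) and 8.06-fold higher than in control discs (3.01, standard error 0.77, adjusted p = 0.0068). In tumours against control discs the differences were -1.53 for *vkg* (standard error 0.78, adjusted p = 0.14) and -1.66 for *Col4a1* (standard error 0.66, adjusted p = 0.067), and neither passed the threshold. Without control replicate 3 both *vkg* (-2.48, adjusted p = 0.038) and *Col4a1* (-2.69, adjusted p = 0.0047) were lower in tumours. The *Col4a1* call also appeared without the second 14-week tumour (-1.95, adjusted p = 0.042), with CPM of total reads (-1.97, adjusted p = 0.032) and with the replicate block (-2.18, adjusted p = 0.013).

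SPARC binds collagen IV and is needed for its deposition in the fly embryo. *SPARC* (FBgn0026562, chromosome 3R, 26869238 to 26871995, minus strand) stood at 138, 192 and 164 CPM in the metamorphed cells, at 2.35 to 43.9 CPM in the tumours (median 14.9) and at 36.5, 12.4 and 14.7 CPM in control discs. The metamorphed samples were again above all others, and the tumours spanned the whole range of the control discs. *SPARC* was 13.4-fold higher in metamorphed cells than in tumours (3.75, standard error 0.64, adjusted p = 3.1e-04) and 8.23-fold higher than in control discs (3.04, standard error 0.74, adjusted p = 0.0053). Tumours differed from control discs by -0.71 (standard error 0.64, adjusted p = 0.42), with a 95% confidence interval of -2.10 to 0.68. The calls of *SPARC* in metamorphed cells held in all 12 leave-one-out fits, in each of which a sample was dropped.

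Since collagen IV and SPARC are made by haemocytes and fat body in larvae, the markers of those cells were summed in each sample. The 9 haemocyte markers measured, of 10 listed, summed to 488, 671 and 465 CPM in metamorphed replicates 1 to 3. They summed to 60.2 to 126 CPM in tumours and to 96.4 to 134 CPM in control discs. None was at 0 in all samples of a group. *NimC1*, *eater*, *He* and *Sr-CI* were at 0 in several tumours, and *Hml* and *PPO2* in the first 14-week tumour. *eater* and *He* were also at 0 in some control discs. *crq* was the largest part of the sum in metamorphed cells (295 to 465 CPM). In tumours most of the sum was *crq* (13.9 to 85.5 CPM) and *ush* (24.8 to 60.3 CPM), and no other marker exceeded 8.94 CPM. These 2 genes also made most of the sum in control discs (41.2 to 97.0 and 21.6 to 25.2 CPM). Metamorphed cells were higher in 7 of the 9 against tumours and in 6 of the 9 against control discs, among them *PPO2*. *NimC1* was the 1 marker of the 9 that was lower in tumours than in control discs. The 10 fat body markers summed to 10579, 2473 and 4479 CPM in metamorphed replicates 1 to 3, to 1.01 to 14.5 CPM in tumours and to 154, 986 and 170 CPM in control replicates 1 to 3. All 10 were higher in metamorphed cells than in both other groups, and 5 of 10 were lower in tumours than in control discs. *Fbp1*, *Fbp2*, *Lsp1alpha* and *Lsp1beta* were at 0 in all tumours, and *Fbp1* was at 0 in all control discs. Metamorphed replicate 2 had the highest collagen IV and haemocyte marker levels of the metamorphed samples and the lowest fat body marker sum, and control replicate 2 had the highest of all 3 among the control discs. The part of these cells in the levels of collagen IV and *SPARC* was not tested.

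**Figure D2:**
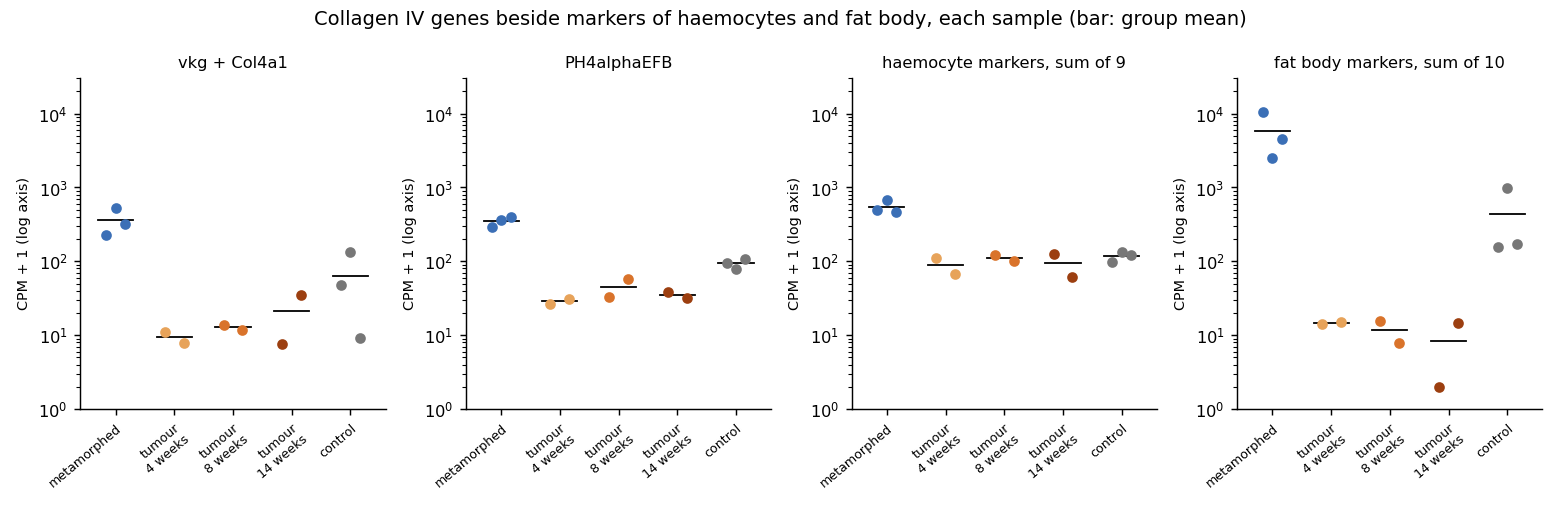
Sum of *vkg* and *Col4a1*, the collagen prolyl hydroxylase gene *PH4alphaEFB*, the sum of 9 haemocyte markers and the sum of 10 fat body markers in every sample, as CPM + 1 on a log axis, with a point per sample and a bar at the group mean. All 4 measures are highest in the 3 metamorphed samples, and the fat body sum is between 1.01 and 14.5 CPM in the 6 tumours.

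Laminin is a trimer of an α, a β and a γ chain, and the 3 chain genes did not move together. *LanA* (FBgn0002526, chromosome 3L, 6203831 to 6218022, minus strand), an α chain gene, stood at 79.8, 47.8 and 41.5 CPM in the metamorphed cells, at 89.3 to 274 CPM in the tumours (median 185) and at 83.9, 235 and 170 CPM in control discs. The metamorphed samples were below all others, by a small margin for metamorphed replicate 1 and control replicate 1. *LanA* was 3.17-fold lower in metamorphed cells than in tumours (-1.67, standard error 0.385, adjusted p = 0.003) and 2.74-fold lower than in control discs (-1.45, standard error 0.44, adjusted p = 0.019). The call against control discs did not hold in 4 of 12 leave-one-out fits. It was missed without control replicate 2 (-1.13, adjusted p = 0.095) or 3 (-1.36, adjusted p = 0.071) and without metamorphed replicate 2 (-1.36, adjusted p = 0.061) or 3 (-1.27, adjusted p = 0.08), and with the length trend removed (-0.90, adjusted p = 0.089). Tumours and control discs differed by 0.21 (standard error 0.385, adjusted p = 0.71).

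*LanB2* (FBgn0267348, chromosome 3L, 9614914 to 9623980, plus strand), the γ chain gene, stood at 266, 248 and 195 CPM in the metamorphed cells, at 55.4 to 119 CPM in the tumours (median 72.9) and at 127, 208 and 137 CPM in control discs. All 6 tumours were below all control discs and all metamorphed samples. *LanB2* was 3.16-fold higher in metamorphed cells than in tumours (1.66, standard error 0.25, adjusted p = 9.4e-05) and 2.08-fold lower in tumours than in control discs (-1.06, standard error 0.25, adjusted p = 0.0054). The difference between tumours and control discs held in all 12 leave-one-out fits (-1.19 to -0.84) and was lost when each sample's trend with transcript length was removed (-0.16, adjusted p = 0.65). Metamorphed cells and control discs differed by 0.61 (standard error 0.29, adjusted p = 0.11), with a 95% confidence interval of -0.01 to 1.22, and this difference passed the threshold with the length trend removed (1.16, adjusted p = 0.0032).

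*LanB1* (FBgn0261800, chromosome 2L, 7811438 to 7820771, plus strand), the β chain gene, stood at 228, 181 and 169 CPM in the metamorphed cells, at 152 to 450 CPM in the tumours (median 216) and at 131, 202 and 202 CPM in control discs. The groups overlapped in each comparison, and none of the 3 passed the threshold. The differences were -0.23 in metamorphed cells against tumours (95% confidence interval -0.84 to 0.38, adjusted p = 0.53), 0.13 in metamorphed cells against control discs (-0.57 to 0.83, adjusted p = 0.79) and 0.36 in tumours against control discs (-0.25 to 0.96, adjusted p = 0.35). With each sample's length trend removed, *LanB1* (1.26, adjusted p = 0.003) and *LanA* (1.09, adjusted p = 0.031) were higher in tumours than in control discs.

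Nidogen links the laminin and collagen IV networks. *Ndg* (FBgn0026403, chromosome 2R, 10313891 to 10322104, plus strand) was the gene with the lowest values, at 18.7, 1.01 and 8.26 CPM in the metamorphed cells (1050, 72 and 503 reads), with 0 to 3.23 CPM in the tumours, and 0, 4.66 and 0 CPM in control discs. Metamorphed replicate 2 lay within the range of the tumours. *Ndg* was higher in metamorphed cells than in tumours by 2.00 (standard error 0.75, adjusted p = 0.042). The call was lost in 9 of 13 other settings, with adjusted p-values up to 0.18. It also did not pass in 9 of 12 leave-one-out fits, where the adjusted p reached 0.23 and the value 1.27, without metamorphed replicate 1. The fits that kept the call were those without control replicate 2, without the first 4-week tumour and without metamorphed replicate 2. Its difference from control discs was 2.01 (standard error 0.86, adjusted p = 0.079). It passed the threshold without control replicate 2 (2.84, adjusted p = 0.024), without metamorphed replicate 2 (2.92, adjusted p = 0.016) and with the length trend removed (2.51, adjusted p = 0.031). Tumours and control discs differed by 0.01 (standard error 0.75, adjusted p = 1). A stretch of 657 bases of *Ndg* is shared with *CG34222* on the opposite strand, and reads of the pair cannot be told apart where strand was not used in counting, which is not stated in the sources used here.

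Of the integrin genes, *mys* (FBgn0004657, chromosome X, 8061645 to 8070237, plus strand) encodes the βPS chain that is shared by most fly integrins, and *if* (FBgn0001250, chromosome X, 16752189 to 16783434, minus strand) the αPS2 chain, which pairs with it. *mys* stood at 476, 705 and 335 CPM in the metamorphed cells, at 152 to 794 CPM in the tumours (median 320) and at 372, 483 and 704 CPM in control discs. The 3 groups overlapped. The differences were 0.59 in metamorphed cells against tumours (95% confidence interval -0.16 to 1.33, adjusted p = 0.19), -0.06 in metamorphed cells against control discs (-0.92 to 0.81, adjusted p = 0.93) and -0.64 in tumours against control discs (-1.39 to 0.10, adjusted p = 0.17). The difference between tumours and control discs passed the threshold without the first 14-week tumour (-0.87, adjusted p = 0.038) and with quantile normalization (-1.06, adjusted p = 0.028). Without the first 14-week tumour *mys* was also higher in metamorphed cells than in tumours (0.81, adjusted p = 0.042).

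*if* stood at 36.8, 42.6 and 49.9 CPM in the metamorphed cells, at 42.0 to 92.9 CPM in the tumours (median 60.5) and at 64.7, 81.2 and 117 CPM in control discs. The metamorphed samples were below all control discs and overlapped with the tumours. *if* was 1.97-fold lower in metamorphed cells than in control discs (-0.98, standard error 0.33, adjusted p = 0.031). The call did not hold without control replicate 2 (-1.01, adjusted p = 0.063) or 3 (-0.75, adjusted p = 0.13). It was also missed without metamorphed replicate 1 (-0.87, adjusted p = 0.092) or 2 (-0.97, adjusted p = 0.065), and with the length trend removed (-0.42, adjusted p = 0.29). Metamorphed cells differed from tumours by -0.53 (standard error 0.29, adjusted p = 0.15, and -0.87, adjusted p = 0.014 with the length trend removed), and tumours from control discs by -0.45 (standard error 0.29, adjusted p = 0.25).

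**Figure D3:**
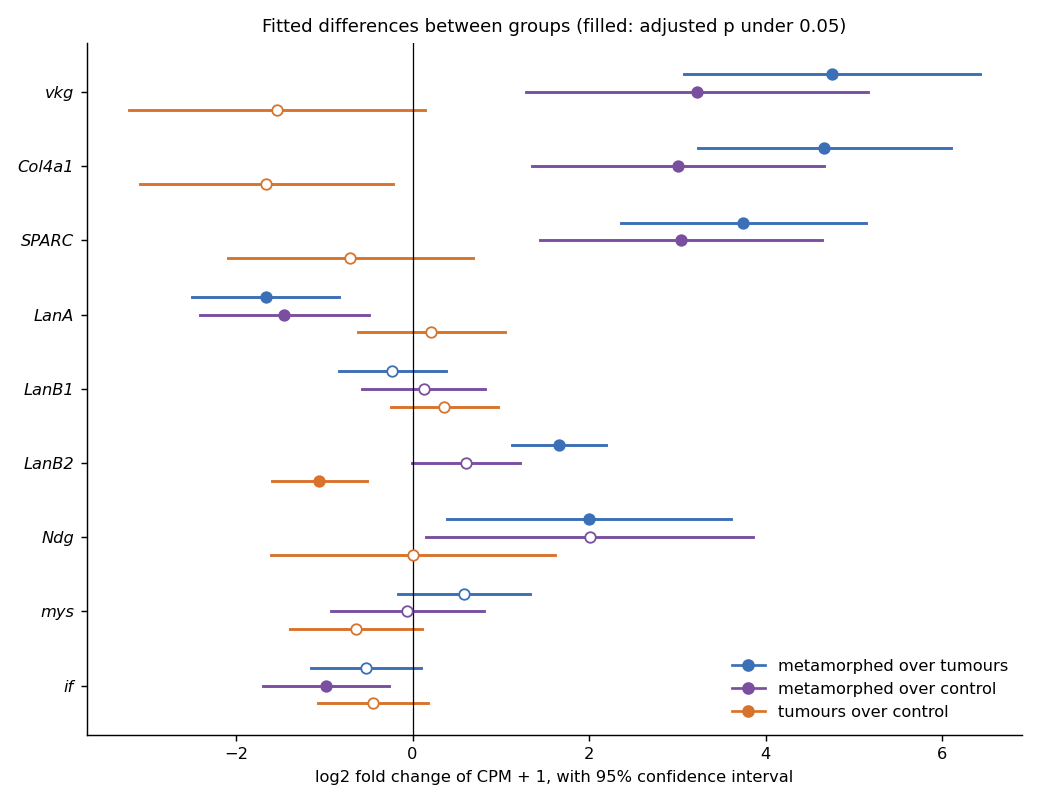
Fitted log2 fold change of CPM + 1 for each of the 9 genes in metamorphed cells over tumours, metamorphed cells over control discs and tumours over control discs, with 95% confidence intervals and filled points where the adjusted p was under 0.05. *vkg* (4.75 and 3.22), *Col4a1* (4.67 and 3.01) and *SPARC* (3.75 and 3.04) are filled in both comparisons of metamorphed cells, and *LanB2* (-1.06) is the filled point among the comparisons of tumours with control discs.

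To compare levels between genes, CPM was divided by the exonic length of each gene in kilobases. Each sample's trend with transcript length was not removed from these levels, and it can shift long and short genes differently in each group. On this scale *mys* had the highest mean of the 9 genes in tumours (86.0 CPM per kb) and in control discs (116 CPM per kb), and *SPARC* in metamorphed cells (137 CPM per kb), where *mys* averaged 113 CPM per kb. In the second 14-week tumour *mys* (33.9 CPM per kb) was below *LanB1* (71.7) and *SPARC* (36.5). *Col4a1* averaged 37.8 CPM per kb in metamorphed cells, 1.41 in tumours and 6.99 in control discs. It was thus close to *LanB2* (39.9 CPM per kb) and *LanB1* (30.7 CPM per kb) in metamorphed cells, with overlapping samples, whereas in tumours *LanB1* averaged 38.2 and *LanB2* 12.8 CPM per kb. The level of *LanA* was 4.82 CPM per kb in metamorphed cells, 15.7 in tumours and 14.0 in control discs. *Ndg* had the lowest level per length in each group, from 0.237 CPM per kb in tumours to 1.94 in metamorphed cells.

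Chains that assemble into a protein were then compared within each sample, a ratio that does not depend on how the sample was scaled. For 3 pairs of chains and 3 comparisons this made 9 exact two-sided permutation tests over samples. The log2 ratio of *LanB1* to *LanB2* was -0.22, -0.46 and -0.21 in metamorphed replicates 1 to 3, between 1.13 and 1.92 in the 6 tumours and 0.04, -0.04 and 0.56 in control replicates 1 to 3. Every tumour held more *LanB1* than *LanB2*, by 2.19 to 3.79 times, and no tumour overlapped with a metamorphed sample or a control disc. The mean log2 ratio was 1.61 ± 0.28 in tumours (SD, n = 6) and 0.19 ± 0.32 in control discs (SD, n = 3), a difference of 1.42 (exact permutation test, p = 0.024, the smallest that 6 against 3 samples allow). Its adjusted p by the Benjamini-Hochberg method over these 9 exact tests was 0.11. In metamorphed cells it was -0.29 ± 0.14 (SD, n = 3), lower than in tumours (difference -1.91, exact permutation test, p = 0.024, adjusted p = 0.11). Neither difference passed the correction, which these 2 tests could not do alone, as both already stood at the smallest p possible. The adjusted p-values of the other 7 exact tests were 0.15 to 0.98, and tests of 3 against 3 samples could not pass whatever their values. The difference from control discs was -0.48 (exact permutation test, p = 0.1, the smallest that 3 against 3 samples allow).

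The log2 ratio of *vkg* to *Col4a1* was -0.88 ± 0.13 in metamorphed cells (SD, n = 3), -1.32 ± 1.26 in tumours (SD, n = 6) and -1.19 ± 0.17 in control discs (SD, n = 3). In the metamorphed cells and control discs there were thus 0.384 to 0.585 *vkg* reads for each *Col4a1* read. The tumours spread over -3.42 to -0.14, where *vkg* rested on 13 to 194 reads per library. The differences were 0.44 in metamorphed cells against tumours (exact permutation test, p = 0.71), 0.31 in metamorphed cells against control discs (p = 0.1, exact permutation test) and -0.13 in tumours against control discs (p = 0.98, exact permutation test). The log2 ratio of *if* to *mys* was -3.50 ± 0.67 in metamorphed cells (SD, n = 3), -2.37 ± 0.70 in tumours (SD, n = 6) and -2.56 ± 0.03 in control discs (SD, n = 3). It differed by -1.13 in metamorphed cells against tumours (exact permutation test, p = 0.071), by -0.93 in metamorphed cells against control discs (p = 0.1, exact permutation test) and by 0.19 in tumours against control discs (p = 0.62, exact permutation test).

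**Figure D4:**
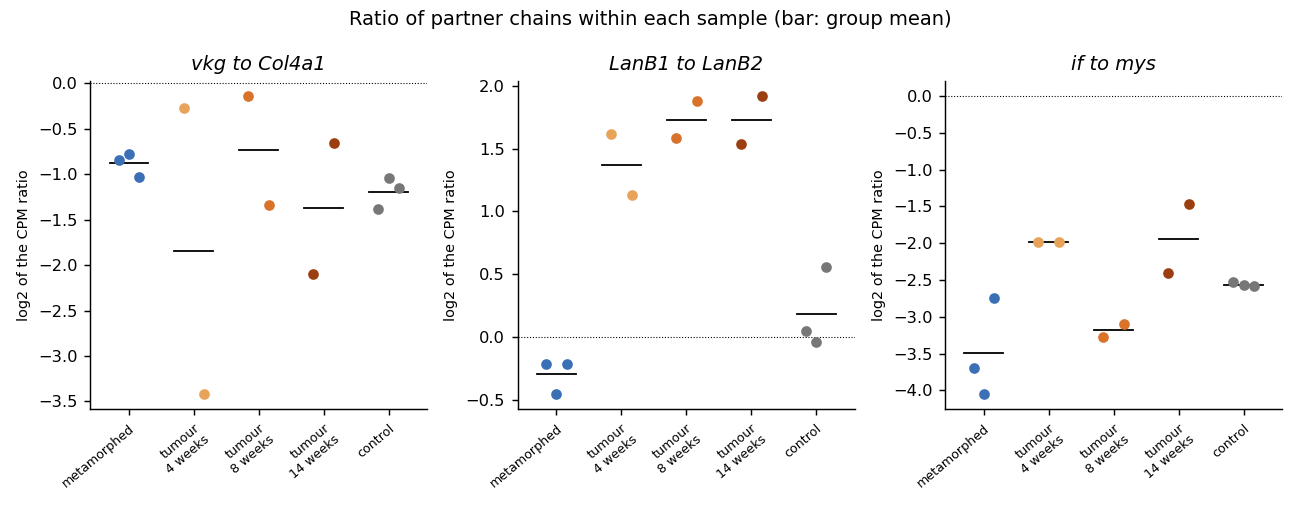
Log2 of the CPM ratio of *vkg* to *Col4a1*, *LanB1* to *LanB2* and *if* to *mys* within each sample, with a point per sample, a bar at the group mean and a dotted line at equal CPM. The 6 tumours lie between 1.13 and 1.92 in the panel of *LanB1* to *LanB2*, above all metamorphed samples and control discs.

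Tumours of the 3 ages were also compared with control discs one age at a time, with 2 tumours per age. *LanB2* averaged 73.8, 56.2 and 97.8 CPM in tumours of 4, 8 and 14 weeks, against 157 CPM in control discs. The 4-week tumours (-1.05, adjusted p = 0.023) and the 8-week tumours (-1.43, adjusted p = 0.008) were lower. The value of the 14-week tumours was -0.68 (adjusted p = 0.14). The call at 4 weeks did not hold without control replicate 2 (-0.83, adjusted p = 0.076) or without either 4-week tumour, nor that at 8 weeks without either 8-week tumour, with adjusted p-values of 0.059 to 0.13 in these 5 fits. With the length trend removed the value at 4 weeks was 0.094 (adjusted p = 0.85) and that at 8 weeks -0.74 (adjusted p = 0.13). *mys* stood at 251 and 166 CPM in the 4-week tumours, 561 and 794 CPM in the 8-week tumours and 389 and 152 CPM in the 14-week tumours, so that the 8-week tumours were above those of both other ages. The 4-week tumours were lower than control discs (-1.29, adjusted p = 0.039). This did not hold in 7 of 12 leave-one-out fits, those without control replicate 2 or 3, any of the 4-week or 8-week tumours, or metamorphed replicate 1 (adjusted p = 0.052 to 0.25). With the length trend removed the value was -0.14 (adjusted p = 0.82). The 8-week tumours differed by 0.41 (adjusted p = 0.64) and the 14-week tumours by -1.04 (adjusted p = 0.1). The 14-week value passed the threshold without the first 14-week tumour (-1.72, adjusted p = 0.016), with CPM of total reads (-1.64, adjusted p = 0.041) and with quantile normalization (-1.57, adjusted p = 0.02).

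The genes called at 4 weeks were 2 of 9, both lower, where 21.0% of all genes were lower. At 8 weeks 1 of 9 was lower, the gene being *LanB2*, where 9.84% of all genes were lower. At 14 weeks limma called 0 of 9 in either direction, where 26.6% of all genes were called. At an unadjusted p under 0.05 there were 2 of 9, where 3877 of the 10177 genes tested passed. Between 14-week and 4-week tumours 0 of the 9 genes passed the limma test, where 0.0983% of all genes were called. In that comparison 0 of the 9 had an unadjusted p under 0.05, where 962 of the 10177 genes tested did. For *mys*, the difference of 8-week from 4-week tumours was 1.70 (adjusted p = 0.2 by limma) and that of 14-week from 8-week tumours was -1.45 (adjusted p = 0.41 by limma). Neither passed the threshold. *LanB1* stood at 223 and 450 CPM in the 14-week tumours, both above all control discs, with a difference of 0.85 (adjusted p = 0.1). For *LanB1* this passed the threshold without the first 14-week tumour (1.36, adjusted p = 0.019) and with the length trend removed (1.70, adjusted p = 0.0034).

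Genes of related function were counted in lists written from general knowledge of fly genes. The counts stand beside shares over all genes tested of 28.5% higher and 18.0% lower in metamorphed cells against tumours, 21.6% and 19.0% in metamorphed cells against control discs, and 14.4% and 21.6% in tumours against control discs. Setting genes without reads in a group at their bound from a floor of 3 reads did not move a list's median. Of the 11 basement membrane components tested, the members included, 5 were higher and 2 lower in metamorphed cells than in tumours. Compared with control discs 3 were higher and 3 lower in metamorphed cells, and 0 higher and 2 lower in tumours. Their medians in the 3 comparisons were 1.66, 0.61 and -0.71. The second laminin α chain gene, *wb*, was at 0 to 4.70 CPM in metamorphed cells, 14.4 to 30.1 CPM in tumours and 28.4 to 52.5 CPM in control discs. *wb* was lower in metamorphed cells than in tumours (-2.75, adjusted p = 7.6e-04) and than in control discs (-3.64, adjusted p = 3.5e-04). Both laminin α chain genes were thus lower in metamorphed cells, though the *LanA* call against control discs was lost in several leave-one-out fits. *Mp*, a collagen XV/XVIII gene, was lower than in control discs in metamorphed cells (-2.76, adjusted p = 7.6e-04) and in tumours (-2.89, adjusted p = 2.8e-04).

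Among the 6 integrin chain genes tested, 1 was higher and 1 lower in metamorphed cells than in tumours. Relative to control discs 0 were higher and 3 lower in metamorphed cells, and 0 higher and 2 lower in tumours. The medians of the 3 comparisons were -0.24, -1.15 and -0.55. *mew*, which encodes the laminin-binding αPS1 chain, was at 10.2 to 43.3 CPM in metamorphed cells, 8.18 to 14.4 CPM in tumours and 41.2 to 86.0 CPM in control discs. It was higher in metamorphed cells than in tumours (1.21, adjusted p = 0.043) and lower in tumours than in control discs (-2.54, adjusted p = 9.0e-04). *ItgaPS5* had 0 reads in all 3 metamorphed samples, at least 137-fold lower than the mean of 6.63 CPM in tumours and at least 108-fold lower than the mean of 5.23 CPM in control discs, taking the mean of 3 reads per library as the floor. Its difference between tumours and control discs was 0.24 (adjusted p = 0.7), the highest value of the list there. The β chain gene *Itgbn* was lower than in control discs in metamorphed cells (-1.39, adjusted p = 0.025) and in tumours (-1.25, adjusted p = 0.024).

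Of the 7 genes tested that cut, inhibit or cross-link matrix, 4 were higher and 2 lower in metamorphed cells than in tumours. Against control discs 2 were higher and 2 lower in metamorphed cells, and 2 higher and 2 lower in tumours. The median differences in these 3 comparisons were 1.54, -0.36 and 0.18. *Timp*, the inhibitor of matrix metalloproteinases, stood at 1002 to 1196 CPM in metamorphed cells, 5.98 to 61.9 CPM in tumours and 29.6 to 193 CPM in control discs. It was higher in metamorphed cells by 5.35 against tumours (adjusted p = 3.4e-06) and by 3.84 against control discs (adjusted p = 3.4e-04), and lower in tumours than in control discs (-1.51, adjusted p = 0.048). The metalloproteinase gene *Mmp2* stood at 10.8 to 16.2 CPM in metamorphed cells, 0.121 to 5.57 CPM in tumours and 184 to 312 CPM in control discs, and all 3 comparisons passed the threshold. *Mmp2* was higher in metamorphed cells than in tumours (2.46, adjusted p = 0.0011). Compared with control discs it was lower in metamorphed cells (-4.19, adjusted p = 6.6e-05) and in tumours (-6.65, adjusted p = 8.4e-07). *Mmp1* was higher in metamorphed cells than in tumours (1.54, adjusted p = 0.0051).

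The lysyl oxidase gene *Loxl2* stood at 22.2 to 30.0 CPM in metamorphed cells, at 0 to 1.11 CPM in tumours and at 0 in all control discs. Metamorphed cells were higher than tumours by 4.58 (adjusted p = 2.4e-07) and at least 55.7-fold higher than control discs, taking the mean of 3 reads per library as the floor. *AdamTS-B*, which encodes a secreted metalloproteinase, ran the other way, at 2.38 to 7.83 CPM in metamorphed cells, 115 to 225 CPM in tumours and 39.6 to 47.8 CPM in control discs. Its differences were -4.77 in metamorphed cells against tumours (adjusted p = 1.1e-07), -2.84 in metamorphed cells against control discs (adjusted p = 7.4e-05) and 1.93 in tumours against control discs (adjusted p = 8.5e-04). The related gene *stl* was higher in tumours than in control discs (2.37, adjusted p = 0.0019) and had 0 reads in all metamorphed samples, at least 303-fold lower than its mean of 14.6 CPM in tumours.

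**Figure D5:**
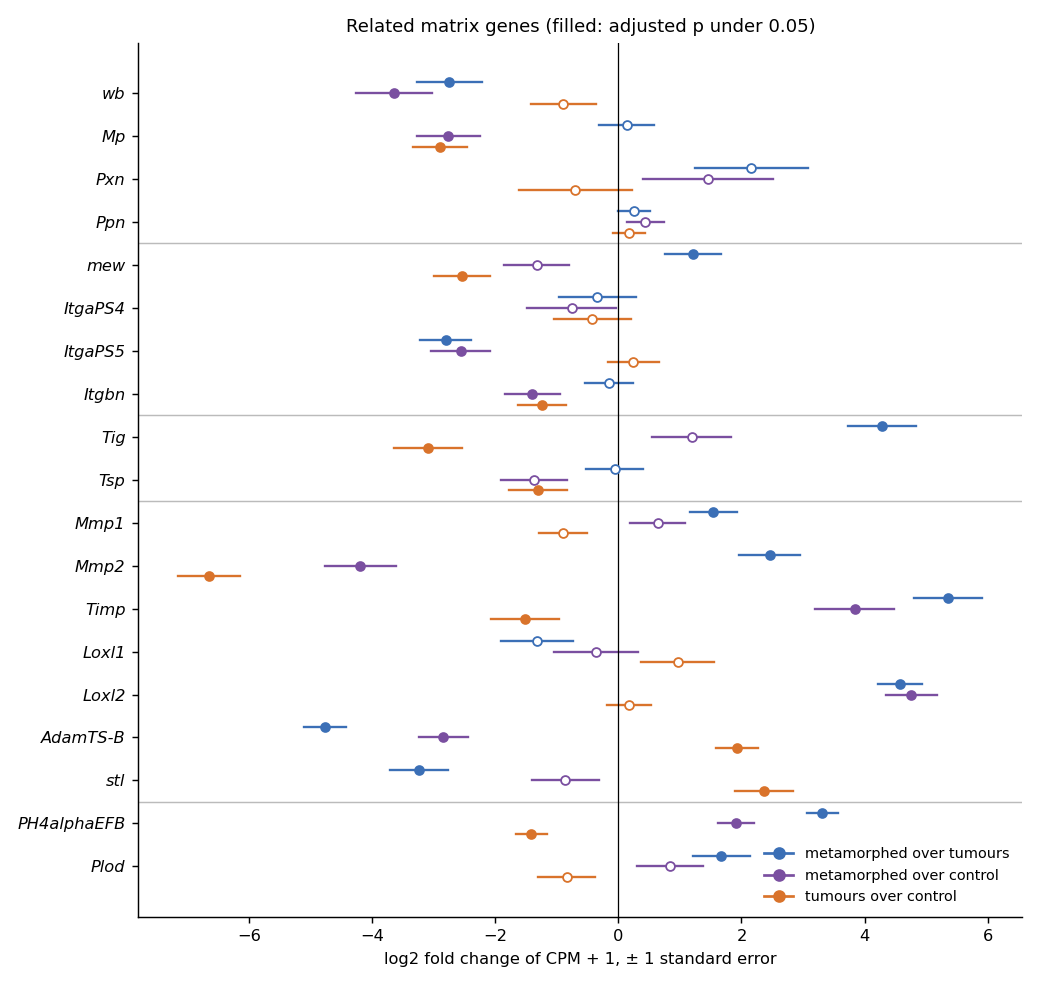
Fitted log2 fold change of CPM + 1, ± 1 standard error, for further genes of basement membrane, integrin chains, integrin ligands, matrix remodelling and collagen hydroxylation. The comparisons are metamorphed cells over tumours, metamorphed cells over control discs and tumours over control discs, with filled points where the adjusted p was under 0.05. *Timp* (5.35 and 3.84) and *Loxl2* lie far to the right in both comparisons of metamorphed cells, and *AdamTS-B* (-4.77) and *Mmp2* in tumours over control discs (-6.65) lie far to the left.

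Collagen chains are hydroxylated in the endoplasmic reticulum before they are secreted. Of 9 genes tested for collagen synthesis and secretion, 3 were higher and 1 lower in metamorphed cells than in tumours. Against control discs 2 were higher and 0 lower in metamorphed cells, and 1 higher and 3 lower in tumours. The median differences in these 3 comparisons were 0.80, 0.52 and -0.29. *PH4alphaEFB*, a prolyl 4-hydroxylase gene, stood at 292, 362 and 402 CPM in metamorphed cells, at 25.6 to 56.8 CPM in tumours and at 94.9, 78.7 and 106 CPM in control discs. None of the groups overlapped. The differences of *PH4alphaEFB* were 3.32 in metamorphed cells against tumours (adjusted p = 2.0e-07), 1.91 in metamorphed cells against control discs (adjusted p = 1.8e-04) and -1.41 in tumours against control discs (adjusted p = 9.5e-04). The COPII coat gene *Sar1* was higher than in control discs in metamorphed cells (1.56, adjusted p = 0.0014) and in tumours (1.19, adjusted p = 0.0046). The lowest of the list were *strat* in metamorphed cells against tumours (-1.17, adjusted p = 0.038) and the Rab GTPase gene *Rab10* in metamorphed cells against control discs (-0.63, adjusted p = 0.51).

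The cytoplasmic proteins that join integrins to actin were counted in a list of 16 genes, all tested. In metamorphed cells 7 were higher and 2 lower than in tumours, and 5 were higher and 4 lower than in control discs, while in tumours 2 were higher and 3 lower than in control discs, with medians of 0.19, 0.34 and -0.40. *CAP*, which encodes a vinculin-binding adaptor, averaged 513 ± 154 CPM in metamorphed cells (SD, n = 3), 47.4 ± 28.5 CPM in tumours (SD, n = 6) and 26.3 ± 8.59 CPM in control discs (SD, n = 3), and was highest of the list in both comparisons of metamorphed cells (3.53, adjusted p = 1.0e-05 against tumours and 4.24, adjusted p = 1.3e-05 against control discs). The lowest were *p130CAS* against tumours (-2.86, adjusted p = 1.3e-05) and *wech* against control discs (-3.89, adjusted p = 3.9e-06). In tumours against control discs the integrin-linked kinase gene *Ilk* was highest (1.07, adjusted p = 0.019) and the kinase gene *Src64B* lowest (-1.25, adjusted p = 0.016).

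Tiggrin, an integrin ligand of muscle attachment sites, showed the same direction as collagen IV in metamorphed cells against tumours. *Tig* stood at 124 to 298 CPM in metamorphed cells, 2.14 to 13.7 CPM in tumours and 30.6 to 151 CPM in control discs. It was higher in metamorphed cells than in tumours (4.28, adjusted p = 2.5e-05) and lower in tumours than in control discs (-3.09, adjusted p = 8.8e-04). The other ligand of this list of 2, the thrombospondin gene *Tsp*, was lower in tumours than in control discs (-1.31, adjusted p = 0.043), and neither ligand passed the threshold in metamorphed cells against control discs. The medians of the pair were 2.11 in metamorphed cells against tumours, -0.09 in metamorphed cells against control discs and -2.20 in tumours against control discs. Of 6 other matrix receptors and proteoglycans, 2 were higher and 1 lower in metamorphed cells than in tumours. Against control discs 0 were higher and 2 lower in metamorphed cells, and 0 higher and 3 lower in tumours. The median differences in these 3 comparisons were 0.13, -0.63 and -0.76. *Ddr*, a discoidin domain receptor gene, had 0 reads in all metamorphed samples, at least 295-fold lower than its mean of 14.2 CPM in control discs, and was lower in tumours than in control discs (-3.76, adjusted p = 6.4e-06). The dystrophin gene *Dys* was higher in metamorphed cells than in tumours (1.10, adjusted p = 0.0078), and lower in tumours than in control discs (-1.98, adjusted p = 2.3e-04). The dystroglycan gene *Dg* was lower in metamorphed cells than in tumours (-0.90, adjusted p = 0.006). The highest values of the list against control discs, 0.37 for the glypican gene *dally* in metamorphed cells (adjusted p = 0.28) and 0.53 for *Dg* in tumours (adjusted p = 0.092), did not pass the threshold.

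The genes with the profile nearest to each of 3 members over the 12 samples were found by the root mean square difference of centred log2(CPM + 1). *Col4a1* was the nearest of all genes tested to *vkg* (0.53), followed by FBgn0010381, an identifier with no symbol in the annotation used here (0.71), and *CG31689* (0.79). Nearest to *LanB2* were *Ip6k* (0.32), *mthl1* (0.32) and *mxt* (0.33), and nearest to *mys* were *asRNA:CR44987* (0.26), *Arp2* (0.27) and *Nop17l* (0.29).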

How the data were processed

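RNA of 12 samples was sequenced from poly(A) RNA isolated with a PicoPure kit, with libraries made by SMARTSeq2 and NexteraXT. According to the methods and the submitters' processing notes, the authors aligned reads with TopHat 2.0.12 and Bowtie 2.2.3 to dm6 and deposited log2 CPM from edgeR 3.16.5 in R 3.3.1. The read counter, the annotation and the use of strand are not given in the sources used here. The deposited log2 values hold a prior of 2.0 reads on average. With the prior removed, 100.0% of values came within 0.1 of a whole number of reads and were turned into linear CPM. The normalization factors contained in them ran from 0.611 to 1.239. Total reads per sample, which set the precision, were 2072498 to 81447816. Floors of 3 reads cover counting error only, since PCR copies are not independent molecules. Symbols, positions and exonic lengths came from Ensembl release 115, which named 17215 of the 17521 genes and not the other 306.

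A gene entered the tests when 2 or more samples reached 1 CPM, which 10177 genes did. A single limma model (3.58.1, R 4.3.3) of the 5 groups, with a mean-variance trend, was fitted to log2(CPM + 1). Two-sided p-values received Benjamini-Hochberg adjustment across the 10177 genes and counted as called below 0.05. The tumour mean gave each of the 3 ages the same weight. The limma steps were run on simulated reads with a single spread setting for all genes and groups and changes planted in the metamorphed group. That run does not show how the fit behaves with the uneven spread of these samples. Exact permutation tests used SciPy 1.17.1. Tables and figures were made in Python 3.11.15 with NumPy 2.4.6, matplotlib 3.10.9 and pandas 2.3.3. The members, the gene lists and the rule for named genes were chosen with earlier results of these data known, and comparisons between successive tumour ages were added later. The rule named all members, the highest and the lowest gene of each list and comparison, every called gene of the basement membrane, integrin chain and remodelling lists, and the 3 nearest profiles of *vkg*, *LanB2* and *mys*. Alternatives covered the pseudocount, filter, scaling, replicate block, samples in the fit, trend, threshold, voom weights, transcript length and leaving out each sample. RNA was collected 2 or 3 times independently according to the methods. Nothing says that replicates share no flies or that tumours of different ages came from separate lines, so p-values measure the spread between these samples. No 2 replicates were copies of each other (chi-square per degree of freedom at least 66.8). Promoter sequences and the list genes *scb*, *AdamTS-A* and *Tango1* are not analysed here.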

Additional observations from a re-analysis of the deposited data

Results flagged for a closer look

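The second 14-week tumour stood apart from the other tumours in *Col4a1*, at 20.7 CPM where the other 5 lay between 5.37 and 7.76 CPM. On the scale of log2(CPM + 1) the gap to the nearest of them was 0.740 of the range of the 6 tumours, above the critical value of 0.625. Of 12 groups of values that were checked, this was the only one to stand out, and about 1 in 20 would do so by chance. The same sample had the highest *vkg* (13.1 CPM), *SPARC* (43.9 CPM), *LanB1* (450 CPM) and *LanB2* (119 CPM) and the lowest *mys* (152 CPM) of the 6 tumours, values that were compared after they had been seen. Its normalization factor was 0.611, where those of the other tumours were 0.965 to 1.149, and CPM is per effective library size, the total times this factor. As CPM of total reads its *Col4a1* was 12.6 where the next tumour had 8.92, and the gap was 0.449 of the range, below the critical value. On that scale it was still the highest tumour in *vkg*, *SPARC* and *LanB1*, and in *LanB2* (72.7 CPM) it was below the first tumours of 4 and 14 weeks (87.3 and 81.4 CPM). Its haemocyte markers summed to 60.2 CPM, the lowest of the tumours, and its fat body markers to 13.4 CPM, within their range.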

How the results depend on the processing

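Of the single-gene values recomputed under 14 other settings and 12 fits that each left out a sample, 1477 kept both their direction and their side of the threshold, 58 lost a call and 28 gained one. The sign changed in 68, of which *LanB2* in 4-week tumours against control discs had been called (0.094 with the length trend removed, adjusted p = 0.85), and the other 67 passed the threshold neither before nor after. The calls of *vkg*, *Col4a1*, *SPARC*, *LanA* and *LanB2* in metamorphed cells against tumours held in all of these fits. The count of members called in tumours against control discs was 1, and it was 2 with quantile normalization, 2 with CPM of total reads and 2 with the length trend removed, and ranged from 1 to 3 when samples were left out, with 3 without control replicate 3 and 2 without either 14-week tumour. The count in metamorphed cells against control discs was 5, and 1 with no filter on low values, where *SPARC* kept its call, 2 at a threshold of 0.01, and 2 to 5 when samples were left out, the lowest without control replicate 3 and 3 without metamorphed replicate 2. The 6 calls against tumours numbered 5 or 6 throughout, and the 0 calls between 14-week and 4-week tumours stayed at 0.

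The cause of these changes was not tested. Samples with equal replicate numbers were not more alike on average (mean correlation of deviations -0.02 for equal and 0.01 for other numbers). Over the 21 pairs with equal numbers the correlation ran from -0.20 to 0.27. With the replicate block 2 members were called in tumours against control discs, *Col4a1* at -2.18 (adjusted p = 0.013) being added. In tumours against control discs the median over all genes was 0.07 after quantile normalization and -0.43 when CPM used total reads, where it was -0.19 for log2(CPM + 1) and -0.29 for the log2 CPM as deposited. The split of calls over all genes was 2128 higher and 1711 lower after quantile normalization, 943 and 2652 for CPM of total reads and 1481 and 1461 with the length trend removed, against 1463 and 2201. In metamorphed cells against control discs it was 1550 and 2696 with CPM of total reads, against 2198 and 1934, and against tumours 2224 and 2902 with quantile normalization, against 2896 and 1829. Control replicate 1, with the fewest reads, limits the precision of low values such as those of *Ndg*.

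Signs changed in these cases. With CPM of total reads the values were -0.11 for *LanA* and -0.027 for *Ndg* in tumours against control discs, -0.38 for *LanB1* in metamorphed cells against control discs, -0.17 for *LanA* and -0.11 for *LanB1* in 4-week tumours against control discs, -0.041 for *LanB1* in 8-week tumours against control discs, -0.20 for *LanA* in 14-week tumours against control discs, -0.024 for *LanA*, -0.11 for *mys* and -0.061 for *if* in 14-week against 4-week tumours. With voom weights the values were -0.033 for *LanA* and -0.54 for *Ndg* in tumours against control discs, -0.18 for *LanA*, -0.30 for *Ndg* and 0.33 for *SPARC* in 4-week tumours against control discs, -0.070 for *LanA* and -0.017 for *LanB1* in 8-week tumours against control discs. With median-of-ratios scaling the value was -0.030 for *Ndg* in tumours against control discs. With the replicate block the value was -0.11 for *Ndg* in tumours against control discs. With the length trend removed the values were 0.22 for *mys* and 0.45 for *if* in tumours against control discs, 0.41 for *mys* in metamorphed cells against control discs, 0.094 for *LanB2* and 0.43 for *if* in 4-week tumours against control discs, 0.49 for *if* in 8-week tumours against control discs, 0.17 for *LanB2*, 0.037 for *Ndg* and 0.43 for *if* in 14-week tumours against control discs, -0.033 for *mys* in 14-week against 4-week tumours. With quantile normalization the values were -0.37 for *LanB1* in metamorphed cells against control discs, -0.059 for *LanA*, -0.089 for *LanB1* and 0.47 for *SPARC* in 4-week tumours against control discs, -0.0085 for *LanB1* in 8-week tumours against control discs, 0.14 for *SPARC* in 14-week tumours against control discs. When samples were left out one at a time the ranges were -0.20 to 0.54 for *LanA* and -0.41 to 0.84 for *Ndg* in tumours against control discs, -0.081 to 0.23 for *LanB1* and -0.33 to 0.21 for *mys* in metamorphed cells against control discs, -0.74 to 0.87 for *LanA*, -0.21 to 0.46 for *LanB1*, -0.83 to 1.25 for *Ndg* and -0.32 to 0.43 for *SPARC* in 4-week tumours against control discs, -0.24 to 0.50 for *LanA*, -0.11 to 0.26 for *LanB1* and -0.55 to 0.13 for *if* in 8-week tumours against control discs, -2.52 to 0.13 for *vkg*, -0.015 to 0.72 for *LanA* and -2.19 to 1.17 for *SPARC* in 14-week tumours against control discs, -0.40 to 2.25 for *vkg*, -0.11 to 1.66 for *Col4a1*, -0.47 to 1.14 for *LanA*, -2.16 to 1.20 for *SPARC* and -0.42 to 0.93 for *mys* in 14-week against 4-week tumours. The log2 ratio of *vkg* to *Col4a1* in tumours against control discs ranged over -0.36 to 0.29.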

Other observations

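Markers of other cells that carry a basement membrane were read in the same samples. The 9 muscle markers summed to 177 to 1457 CPM in metamorphed cells, 187 to 1142 CPM in tumours and 135 to 237 CPM in control discs. In each tumour most of this sum was the single gene *Mlc2* (148 to 1036 CPM). Against control discs 1 of 9, *Mlc2*, was higher in tumours and 1, *sls*, was lower. Of the 9 markers, 7 were higher in metamorphed cells than in tumours. Against control discs 8 of 9 were higher and 1 lower in metamorphed cells. The 6 glial markers summed to 1114 to 1473 CPM in metamorphed cells, 323 to 1448 CPM in tumours and 969 to 1661 CPM in control discs. In each tumour most of this sum was *nrv2* (248 to 1401 CPM), while *repo* was at most 0.485 CPM. *nrv2* was also most of the sum in metamorphed cells (840 to 1297 CPM) and in control discs (718 to 1321 CPM). *repo* stood at 0.168 to 9.02 CPM in metamorphed cells and at 10.9 to 12.5 CPM in control discs. Of the 6 glial markers, 4 were lower in tumours than in control discs, *wrapper* being at 0 in all tumours. In metamorphed cells 0 were higher and 3 lower than in control discs, and 2 were higher and 0 lower than in tumours. The tracheal gene *trh* stood at 14.0 to 36.0 CPM in metamorphed cells, 4.93 to 18.0 CPM in tumours and 0 to 1.10 CPM in control discs. The part of muscle, glia and trachea in the levels of the basement membrane genes was not tested.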
